A study of Mus musculus with 4 samples.

Results

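The arms of miR-124 and miR-9 were examined in small RNA libraries from mouse medial prefrontal cortex. They were chosen by name, as every entry of the deposited list of known miRNAs that is an arm of miR-124 or miR-9 by its exact number. This gave 4 of the 1038 miRNAs, namely mmu-miR-124-3p, mmu-miR-124-5p, mmu-miR-9-5p and mmu-miR-9-3p, written below without the species prefix. All 4 reached 5 reads in 1 or more libraries and so were among the 719 miRNAs tested. The mice were male C57BL/6J, entered the procedure at postnatal day 21, and were divided into control mice, which lived without stress, and mice under chronic unpredictable mild stress (CUMS) for 3 weeks. Stressed mice were socially isolated and, at unpredictable times, were restrained, kept in altered cages, or exposed to noise, light or a disturbed light cycle. From the CUMS mice, only animals whose behavior changed in the sucrose preference, Y-maze and forced swimming tests were used, so the CUMS group stands for responsive animals and not for all stressed animals. There were 2 libraries per group. RNA was isolated per mouse, and the paper describes its miRNA comparison as resting on biological duplicates. The labels do not say whether each library came from a separate mouse. The p-values therefore measure only the spread between libraries, which may be technical. The deposited table gives read levels only as group means. The reads of the single libraries were recovered from these means, and the letters a and b tell the libraries of a group apart without standing for a replicate number. Known miRNAs took 10533646 reads in control a, 10783592 in control b, 10427625 in CUMS a and 9589323 in CUMS b. The control totals include miR-181a-5p and let-7f-5p, whose split between control a and control b was less certain.

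A miRNA is cut from a hairpin precursor whose strands, the 5p and the 3p arm, can each enter an Argonaute protein, and the bases near the 5′ end of the loaded arm, the seed, pair with target mRNAs. miR-124 is a miRNA of differentiated neurons that represses transcripts of other cell types, and miR-124-3p is its main arm. miR-9 is a brain miRNA of neural progenitors and neurons. Its 5p arm is the usual guide, and both of its arms are known to act on the machinery of the REST repressor, which silences neuronal genes outside neurons.

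The mature sequences of the miR-9 arms are shown because their seeds define what each arm can pair with. They come from RefSeq on GRCm38.p6, where 884 of the 1038 miRNAs were matched by name. miR-124-3p and miR-124-5p had no match. Capitals mark the seed, bases 2 to 8.
miR-9-5p: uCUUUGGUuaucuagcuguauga
miR-9-3p: aUAAAGCUagauaaccgaaagu
The arms differ in their seeds, and 0 of the other matched miRNAs carried the seed of miR-9-5p and 0 that of miR-9-3p. miR-9-5p is 23 bases long with 34.8% G or C, and miR-9-3p is 22 bases long with 31.8%. The longest stretch of miR-9-5p whose exact complement lies in miR-9-3p is gguuaucuagcu, 12 bases from position 6 to position 17.

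The miR-9 arms are encoded by 3 hairpins, shown because their mature arms are identical, so reads of the arms cannot be assigned to a locus. Capitals mark the 5p arm and the 3p arm.
Mir9-1: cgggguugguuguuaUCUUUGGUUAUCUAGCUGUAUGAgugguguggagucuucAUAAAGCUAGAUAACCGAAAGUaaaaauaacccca
Mir9-2: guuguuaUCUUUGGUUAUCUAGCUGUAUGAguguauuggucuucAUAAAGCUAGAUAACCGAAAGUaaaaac
Mir9-3: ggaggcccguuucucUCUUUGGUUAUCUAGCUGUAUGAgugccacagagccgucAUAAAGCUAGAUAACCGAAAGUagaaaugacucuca
The stretch between the arms is 16 bases long in Mir9-1 and Mir9-3 and 14 bases in Mir9-2. On GRCm38, Mir9-1 lies at chr3:88215598-88215686 on the + strand, in an intron of the lincRNA gene Gm3764 in all 5 transcripts that span it. Another annotated miRNA gene, Gm25641, overlaps it on the opposite strand. Mir9-2 lies at chr13:83738814-83738885 on the + strand within the lincRNA gene C130071C03Rik, where it is exonic in 1 of the 2 transcripts that span it and intronic in the other. Mir9-3 lies at chr7:79505264-79505353 on the + strand, in an intron of Mir9-3hg, a lincRNA gene named as its host, in all 4 spanning transcripts.

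The 4 arms spanned a wide range of levels. miR-9-5p took the largest share of each library among them, 5.99% of the reads in control a (95% Wilson interval 5.98 to 6.01%), 4.65% in control b (4.64 to 4.67%), 5.56% in CUMS a (5.55 to 5.58%) and 7.19% in CUMS b (7.17 to 7.20%). Such intervals cover counting error only. They can be too narrow even for that, because reads copied by PCR are not independent molecules. By reads, miR-9-5p was thus among the leading miRNAs of these libraries, ranked 4, 5, 4 and 3 in the same order. miR-181a-5p and let-7f-5p stood above it in every library, miR-127-3p in all but CUMS b, and miR-182-5p in control b alone.

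miR-124-3p took 0.252%, 0.215%, 0.299% and 0.347% of the reads of control a, control b, CUMS a and CUMS b, and its mean ranked 44. miR-9-3p took 0.0249%, 0.0246%, 0.0330% and 0.0227%, with a mean rank of 123. miR-124-5p, the minor arm of miR-124, ranked 289. Together the 4 arms held 6.27% and 4.89% of the control reads and 5.89% and 7.56% of the CUMS reads, and nearly all of this was miR-9-5p.

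The order by reads was the same in every library: miR-9-5p, miR-124-3p, miR-9-3p and miR-124-5p, with no overlap between arms. The libraries were made by adapter ligation, and how evenly it captured different sequences was not measured. Ranks and ratios between different miRNAs or arms therefore describe reads and need not hold for molecules. The ranges of the members over the libraries overlapped those of the miRNAs next to them in the order of all means. For miR-124-3p these neighbours were miR-744-5p above, at 25184 to 31658 normalized reads (reads divided by the size factor of the library), and miR-138-5p below, at 20719 to 34005. For miR-9-5p they were miR-127-3p, at 625619 to 729486, and miR-99b-5p, at 393555 to 544501. Within each library miR-9-5p took more reads than miR-99b-5p, though nearly the same in control b (4.65 against 4.64%) and CUMS a (5.56 against 5.55%). miR-9-3p lay between miR-431-3p and miR-34c-5p, and miR-124-5p between miR-191-3p and miR-7080-3p, each with overlapping ranges.

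mmu-miR-124-3p, the main arm of miR-124, was the only arm of the 4 whose groups did not overlap. It had 26501 reads in control a, 23152 in control b, 31217 in CUMS a and 33239 in CUMS b. Normalized, control a and b had 25922 and 23143, and CUMS a and b 29393 and 35217. Both CUMS libraries lay above both control libraries, by the least between control a and CUMS a. The means were 24532 ± 1965 (SD, n = 2) in control and 32305 ± 4119 (SD, n = 2) in CUMS, and the difference on the log2(normalized reads + 1) scale was 0.39 (standard error 0.16). Its 95% interval, not adjusted for the number of miRNAs, ran from 0.019 to 0.77, a 1.01- to 1.70-fold higher level in CUMS. The adjusted p over the 719 miRNAs was 0.835 in limma, 0.849 in edgeR and 0.998 in DESeq2, so the difference did not pass the test. The exact permutation test of its 4 values gave p = 0.333, the smallest two-sided p that 2 against 2 libraries allow. The log2 difference ran from 0.26 to 0.52 with 1 library left out, and its sign could not turn because the groups did not overlap. The tissue was sequenced in bulk, so more or fewer cells of a type and more or less RNA per cell cannot be told apart.

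Of all 719 miRNAs, 120 (16.7%) had both CUMS libraries above both control libraries, as 1 of the 4 arms had, and 123 (17.1%) had both below. In either direction 243 (33.8%) did not overlap. A single arm of 4 is near this background. miR-124-3p was 1 of 28 miRNAs (3.89%) with an unadjusted limma p under 0.05, of which 11 (1.53%) were higher in CUMS. Of the 719, 24 (3.34%) had such a p and also a fold over 1.5, and miR-124-3p, at a fold of 1.31, was not among them. At an adjusted p under 0.05, limma called 0 miRNAs (0%), as did edgeR and DESeq2, with 30 and 24 miRNAs at an unadjusted p under 0.05. Without control a limma called 7, none of them an arm of miR-124 or miR-9.

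For its level the difference of miR-124-3p was among the larger ones. Among the 170 miRNAs with a mean of at least 1000 normalized reads, the log2 difference of 2 lay above it, those of miR-879-5p (1.14) and miR-128-1-5p (0.55), and 14 were lower in CUMS by more than that size. Of these 14, 4 were epithelial and sensory miRNAs that were high in control b alone. miR-879-5p was named after its values were seen. Among all 719 tested miRNAs, 133 (18.5%) had a higher log2 difference than miR-124-3p, all but those 2 with a mean under 1000, as the plot of level against difference shows. The median over the 719 was 0.0050, and 363 were higher and 356 lower in CUMS.

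**Figure D1:**
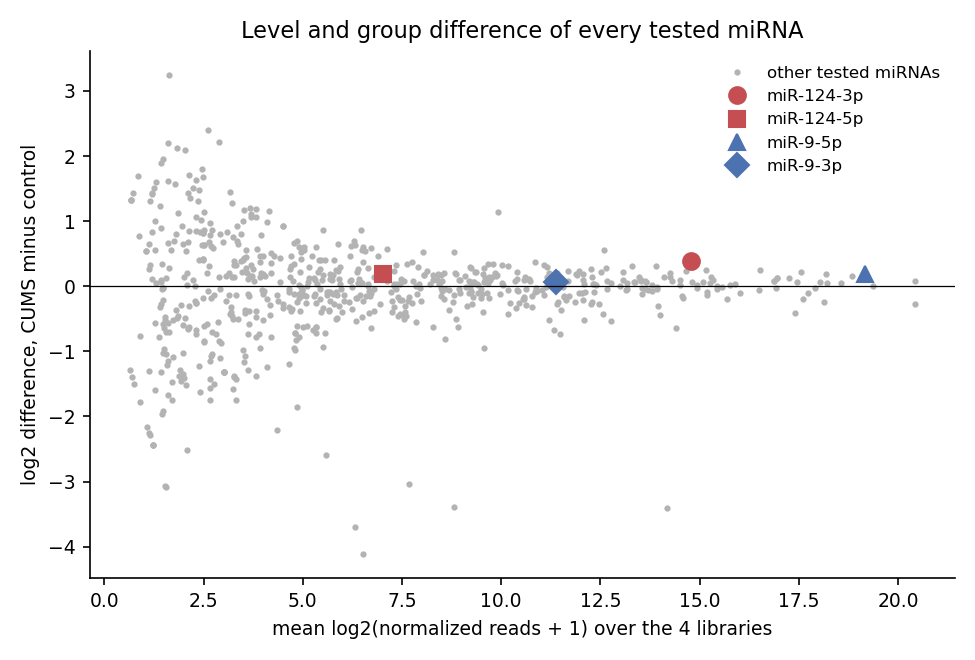
Mean log2(normalized reads + 1) over the 4 libraries (x axis) against the log2 difference CUMS minus control (y axis) for the 719 tested miRNAs, with the miR-124 arms in red and the miR-9 arms in blue. All 4 arms lie above 0, from 0.069 to 0.39, and the differences of other miRNAs spread widely at low levels.

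mmu-miR-124-5p, the minor arm of miR-124, was the least abundant of the 4. Control a held 156 reads of it, control b 96, CUMS a 114 and CUMS b 168. Normalized, control a and b had 153 and 96.0, and CUMS a and b 107 and 178. The groups overlapped, with CUMS b highest, control a next and control b lowest. As CPM, reads per 1000000, the libraries had 14.8 (95% Wilson interval 12.7 to 17.3), 8.90 (7.29 to 10.9), 10.9 (9.10 to 13.1) and 17.5 (15.1 to 20.4) in the same order. The intervals of control a and control b did not overlap, nor did those of CUMS a and CUMS b. Means were 124.3 ± 40.0 in control and 143 ± 50.0 in CUMS (SD, n = 2 each), a log2 difference of 0.19 (standard error 0.36, 95% interval -0.67 to 1.05). In limma the adjusted p was 0.943, and 0.954 in edgeR. Control b and CUMS b each decided the direction, since the log2 difference was -0.14 without the former and -0.17 without the latter.

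mmu-miR-9-5p, the guide arm of miR-9, had 631128 reads in control a, 501927 in control b, 579916 in CUMS a and 689083 in CUMS b. Normalized, control a and b had 617336 and 501726, and CUMS a and b 546028 and 730096. The groups overlapped, since CUMS a lay below control a, and the highest and the lowest library were CUMS b and control b, as for miR-124-5p. Its mean was 559531 ± 81748 in control and 638062 ± 130156 in CUMS (SD, n = 2 each). The log2 difference was 0.18 (standard error 0.20) with an adjusted p of 0.886 in limma and 0.931 in edgeR. The 95% interval, from -0.30 to 0.66, spans a 0.815- to a 1.58-fold level and so holds both an equal level and one 1.5-fold higher. Without CUMS b the log2 difference was -0.028, and without control b it was 0.032.

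mmu-miR-9-3p, the minor arm of miR-9, had 2621 reads in control a, 2657 in control b, 3446 in CUMS a and 2180 in CUMS b. Normalized, control a and b had 2564 and 2656, and CUMS a and b 3245 and 2310. The control libraries lay close together, and the CUMS libraries stood on either side of them, CUMS a above and CUMS b below. Its mean was 2609.8 ± 65.2 in control and 2777 ± 661 in CUMS (SD, n = 2 each). The log2 difference was 0.069 (standard error 0.20, 95% interval -0.41 to 0.55), with an adjusted p of 0.948 in limma and 0.965 in edgeR. It was -0.18 without CUMS a and 0.31 without CUMS b.

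**Figure D2:**
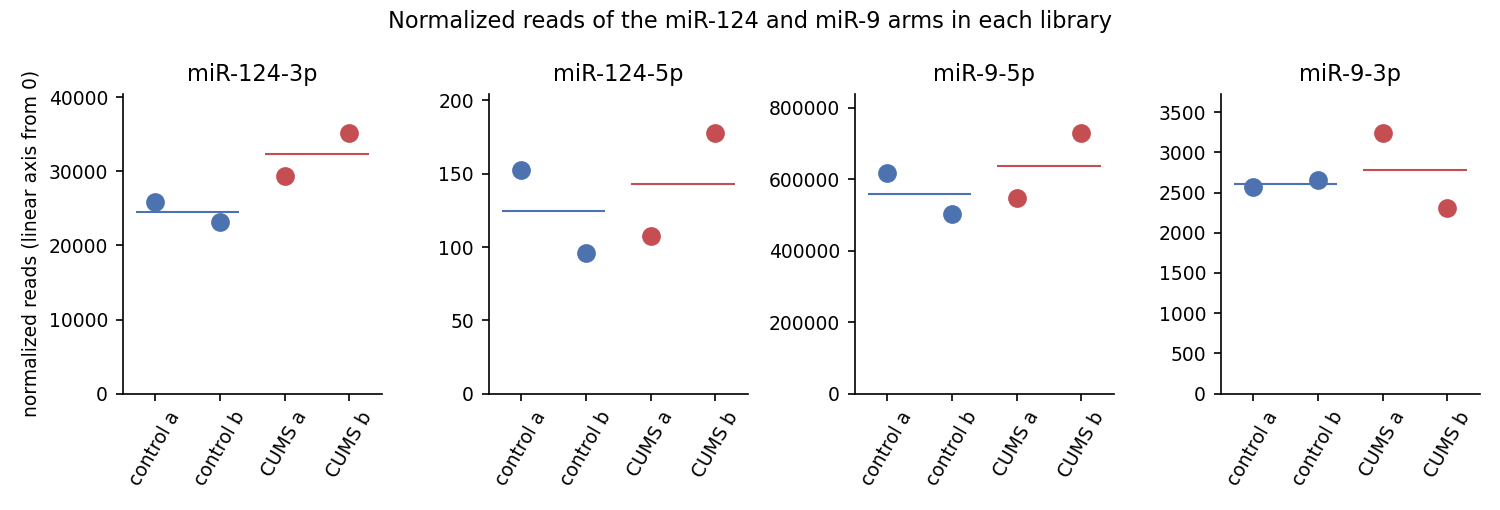
Normalized reads (y axis, linear from 0 and different in each panel) of each arm in the 4 libraries, control in blue and CUMS in red, with a line at each group mean (n = 2). Both CUMS libraries are above both control libraries for miR-124-3p, and the groups overlap for the other arms.

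The libraries of a group differed from each other by different amounts for the 4 arms. For miR-124-5p the absolute log2 gap was 0.66 between the control libraries and 0.72 between the CUMS libraries. Among the 182 miRNAs with a mean within 4-fold of its own, itself included, the median gaps were 0.27 and 0.34, and 20 and 32 of them had larger gaps. miR-9-3p showed the opposite in control, a gap of 0.051 against a median of 0.18 among 126 miRNAs of like level, but 0.49 against 0.23 in CUMS, where 21 had larger gaps. The gaps of miR-9-5p were 0.30 and 0.42, against medians of 0.31 and 0.26 among 18 miRNAs. Those of miR-124-3p, at 0.16 and 0.26, stood against medians of 0.13 and 0.18 among 58. Its group difference of 0.39 was thus larger than either gap, while the differences of the other 3 arms were smaller than the larger of their gaps.

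The ratio of the arms of a miRNA within a library does not depend on the scaling of the libraries. For miR-9 this ratio pools the reads of 3 hairpins, whose mature arms are identical. The arms of miR-124 had no sequence match, so the number of hairpins that its ratio pools was not determined. miR-124-3p exceeded miR-124-5p by 170-fold in control a (95% interval from the counts 145 to 199), 241-fold in control b (197 to 295), 274-fold in CUMS a (228 to 329) and 198-fold in CUMS b (170 to 230). The groups overlapped, and the lowest and the highest ratio were those of control a and CUMS a. The log2 ratio was 7.66 ± 0.36 in control and 7.86 ± 0.33 in CUMS (SD, n = 2 each). The difference of 0.20 gave p = 0.667 in the exact permutation test (two-sided), and it was -0.051 without control a and -0.033 without CUMS a.

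miR-9-5p exceeded miR-9-3p by 241-fold in control a (95% interval 232 to 250), 189-fold in control b (182 to 196), 168-fold in CUMS a (163 to 174) and 316-fold in CUMS b (303 to 330). The intervals of the 4 libraries did not overlap one another, and both the lowest and the highest ratio were in CUMS libraries. Between the CUMS libraries miR-9-5p was higher in b while miR-9-3p was higher in a, so the ratio moved by more than either arm. The log2 ratio was 7.74 ± 0.25 in control and 7.85 ± 0.64 in CUMS (SD, n = 2 each), a difference of 0.11 with p = 1 in the exact permutation test. Without CUMS b the difference was -0.34, and without control b it was -0.062.

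These ratios were compared with those of the other pairs of arms. Both arms were listed under the same stem name for 330 miRNAs. Of these pairs, 113 had a summed mean of at least 1000 normalized reads, 59 with more 5p and 54 with more 3p. miRNAs whose arms differ by a locus number in the name, such as miR-128-3p and miR-128-1-5p, were not paired and are left out. The median ratio of the major to the minor arm among the 113 was 157-fold. A larger ratio than that of miR-124 was found for 51 pairs (45.1%) and than that of miR-9 for 50 pairs (44.2%). The arm ratios of both miRNAs were thus near the middle of these pairs. That of miR-9 is pooled over its 3 hairpins, and that of miR-124 may be pooled too, since its hairpins were not matched. The log2 gap between the CUMS libraries was 0.91 for miR-9, against a median of 0.43, and 18 of the 113 pairs had a larger one. For miR-124 it was 0.46. Between the control libraries the gaps were 0.50 for miR-124 and 0.35 for miR-9, against a median of 0.34.

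The main arms of both miRNAs were also compared with each other within each library. There were 23.8 reads of miR-9-5p for each read of miR-124-3p in control a, 21.7 in control b, 18.6 in CUMS a and 20.7 in CUMS b. Both CUMS libraries lay below both control libraries. Of the 719 single miRNAs 33.8% did not overlap in either direction, but the share among ratios of miRNAs was not computed. This ratio is also not separate from miR-124-3p, whose groups did not overlap by themselves. The log2 ratio was 4.51 ± 0.096 in control and 4.29 ± 0.11 in CUMS (SD, n = 2 each), a difference of -0.21 with p = 0.333 in the exact permutation test, the smallest it allows here. It was between -0.29 and -0.13 whichever library was left out. Both counts come from the same library, so the scaling has no part in this ratio. It is a ratio of reads of different sequences and was not calibrated to molecules.

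**Figure D3:**
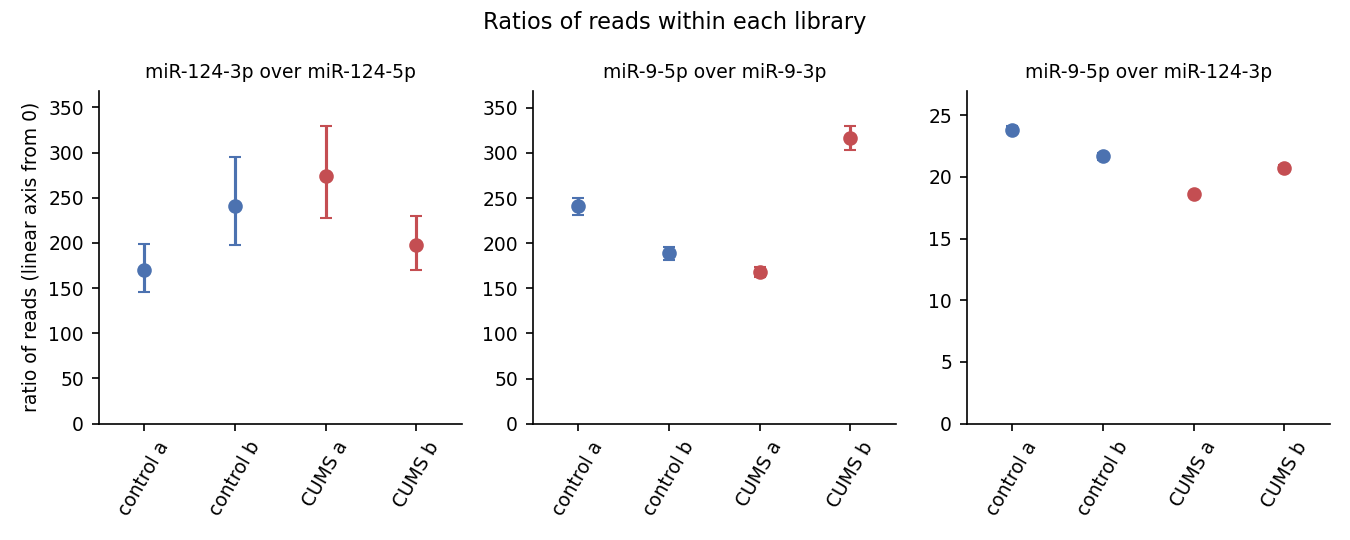
Ratios of reads within each library (y axes, linear from 0): miR-124-3p over miR-124-5p, miR-9-5p over miR-9-3p, and miR-9-5p over miR-124-3p, control in blue and CUMS in red, with 95% intervals from the read counts. The first and second ratios overlap between groups, and the third is lower in both CUMS libraries, at 18.6 and 20.7 against 23.8 and 21.7.

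For each arm, the miRNAs most like it were sought among those with a mean of at least 1000 normalized reads, by the root-mean-square difference of log2 values, each centred on its own mean, over the 4 libraries. With 4 libraries this describes a shared shape only. The nearest to miR-124-3p were miR-132-5p (0.058), the minor arm of the activity-regulated miR-132, miR-488-5p (0.076) and miR-128-1-5p (0.081), a minor arm of the neuronal miR-128. The median distance from miR-124-3p to the 169 miRNAs compared was 0.25. In normalized reads, miR-132-5p was at 2144 and 1949 in control a and b and at 2370 and 2667 in CUMS a and b. miR-488-5p was at 927 and 945 against 1072 and 1276. The shape these 3 shared with miR-124-3p was a level higher in both CUMS libraries, with CUMS b highest.

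miR-9-5p was nearest to miR-103-3p (0.051), miR-370-3p (0.055) and miR-873a-5p (0.059), all highest in CUMS b and next in control a. Around miR-124-5p were miR-221-3p (0.12), let-7b-5p (0.13) and miR-143-3p (0.14), a miRNA of smooth muscle and mural cells. miR-9-3p was nearest to miR-153-3p (0.074), miR-344d-3p (0.083) and miR-181a-2-3p (0.085), each highest in CUMS a. miR-124-5p was too low to be compared as a candidate. Of the other arms, none was among the nearest 3 of another, and the arms of miR-9 had different nearest miRNAs.

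**Figure D4:**
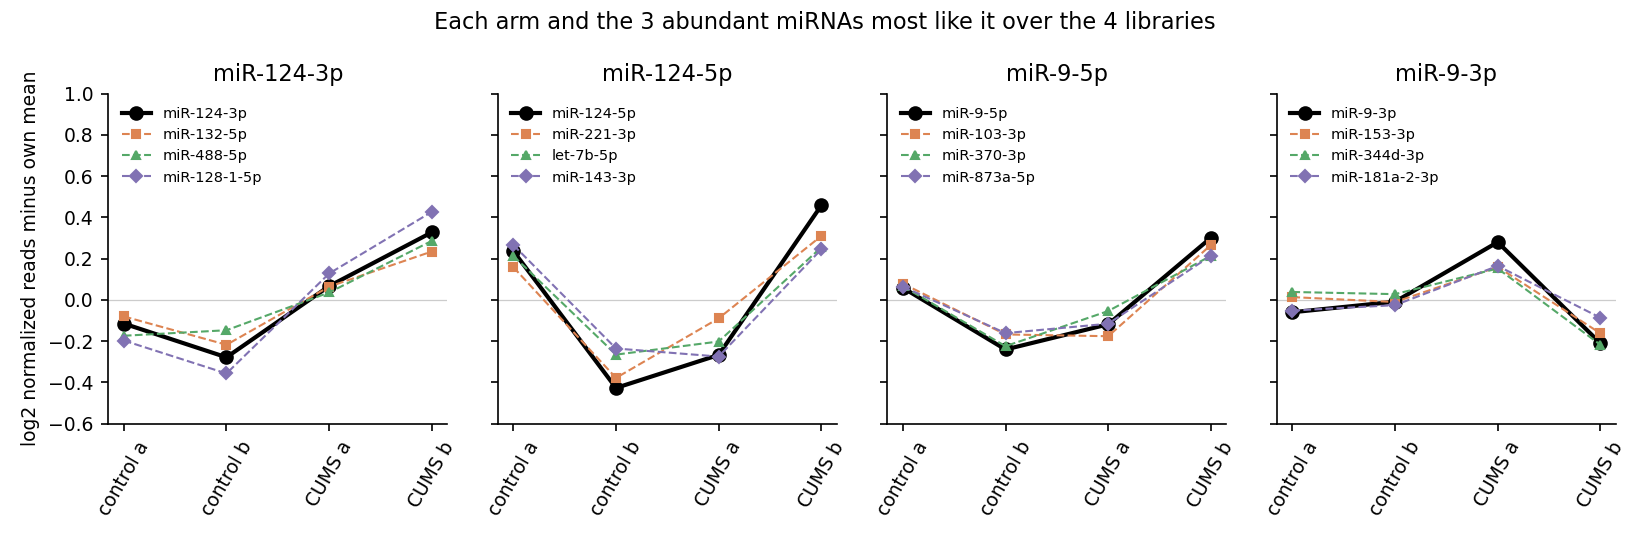
Log2 normalized reads minus the miRNA's own mean (y axis) in the 4 libraries (x axis) for each arm, in black, and the 3 abundant miRNAs most like it, in color. Lines only join the points of a miRNA. miR-124-3p, miR-124-5p and miR-9-5p are highest in CUMS b, while miR-9-3p is highest in CUMS a.

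The gaps between the libraries of a group were also set beside base composition. The log2 difference CUMS b minus CUMS a was 0.42 for miR-9-5p and -0.49 for miR-9-3p, and control a minus control b was 0.30 and -0.051. For the 50 abundant miRNAs with the lowest G and C content, from 23.8 to 43.5%, which include both arms, the medians were 0.13 and 0.10. For the 50 with a middle content they were -0.027 and -0.047, and for the 47 with the highest content -0.052 and 0.011. The CUMS medians fell in the order of content. The control median was highest at the lowest content and lowest at the middle content. Abundant miRNAs without a matched sequence, miR-124-3p among them, were left out. The part of base composition in these gaps was not tested.

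Other miRNAs known from neurons were read at a range of levels in these libraries. All 12 of a list of neuronal miRNAs had reads in every library, at least 67, and their means ran from 73.3 normalized reads to 181615 for miR-128-3p, the most abundant. They summed to 235937 and 226759 normalized reads in control a and b and to 269099 and 224631 in CUMS a and b, and the groups overlapped. The log2 differences ran from -0.46 for miR-134-5p to 0.28 for miR-132-3p with a median of 0.070, against 0.0050 over the 719, and 9 were above and 3 below 0. None of the 12 reached the 0.39 of miR-124-3p. The CUMS libraries were both above the control libraries for miR-132-3p and miR-212-3p, activity-regulated miRNAs of one cluster, and below for miR-134-5p, a dendritic miRNA, that is 2 and 1 of the 12 against 16.7% and 17.1% of all 719. By limma 0 of the 12 passed at an adjusted p under 0.05, as for the 4 arms.

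**Figure D5:**
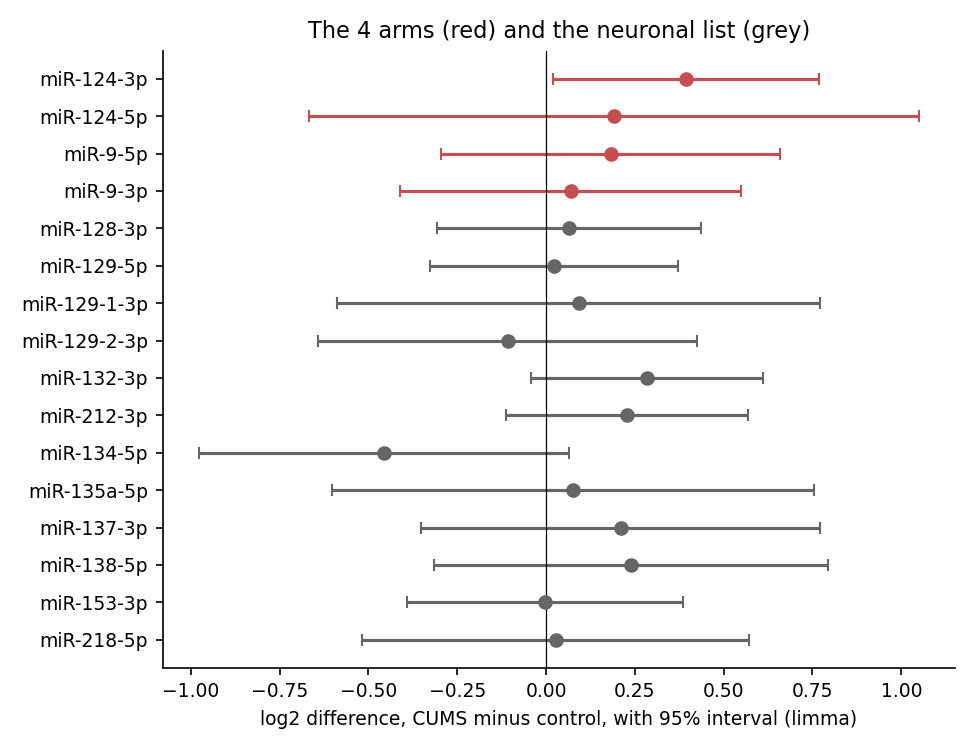
Log2 difference CUMS minus control (x axis) with its 95% limma interval, not adjusted for the number of miRNAs, for the 4 arms (red) and the 12 miRNAs of the neuronal list (grey). The interval of miR-124-3p, from 0.019 to 0.77, is the only one drawn that leaves out 0.

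Markers of other cells and tissues were measured in the same libraries. The 4 oligodendrocyte miRNAs, led by miR-338-3p, summed to 8551 and 9238 normalized reads in control and 6866 and 7983 in CUMS, lower in both CUMS libraries where miR-124-3p was higher. All 4 had a lower mean log2 level in CUMS, and 3 of them lay below both control libraries in both CUMS libraries. Over all 719 miRNAs, 356 were lower in CUMS and 17.1% lay below in both. The 3 choroid plexus miRNAs summed to 16954 and 22046 against 15972 and 12643, nearly all of it miR-204-5p, and the other 2 overlapped between the groups. The muscle miRNAs, 2 of 3 in the table and led by miR-133a-3p, were at 226 and 348 against 194 and 197. The lower sum was that of miR-133a-3p, while miR-1a-3p, a defining muscle miRNA, was at 2 reads in control a, 8 in CUMS b and 0 in the other libraries. The part of these cells in the level of miR-124-3p was not tested.

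The 4 endothelial and mural miRNAs, led by miR-143-3p, summed to 311305 and 222994 in control a and b and to 217675 and 308162 in CUMS a and b. The sum was high in control a and CUMS b, where miR-9-5p and miR-124-5p were high too, but miR-143-3p made up most of it, with 297462 in control a. Of the other members, miR-126a-5p and miR-145a-5p were highest in CUMS b and next in control a, as were those arms, while miR-126a-3p, at 1810, 1868, 1735 and 1589 in control a, control b, CUMS a and CUMS b, was lowest in CUMS b. The part of these cells in the levels of the arms was not tested. The 6 immune miRNAs, led by miR-150-5p, were at 5016 and 5548 in control and 5817 and 4897 in CUMS, and the sums overlapped. Of the 6, 5 had a lower mean log2 level in CUMS, with a median difference of -0.39, and 1 lay below in both CUMS libraries, against 17.1% of the 719. Red cell miRNAs, 4 led by miR-486a-5p, were at 119842, 115264, 114665 and 135359, and the hindbrain and spinal cord miRNAs, 3 of 4 in the table and led by miR-10b-5p, at 12523, 9242, 4755 and 11976, in the order control a, control b, CUMS a and CUMS b. All 4 red cell miRNAs had a higher mean log2 level in CUMS, with a median difference of 0.13, and all 4 overlapped between the groups. Over all 719 miRNAs, 363 were higher. All 3 hindbrain and spinal cord miRNAs had a lower mean log2 level in CUMS, and 2 lay below both control libraries in both CUMS libraries, against 17.1% of the 719. miR-10a-5p, at 4158 and 3315 against 1662 and 3028, was the only member of the marker and neuronal lists with an unadjusted limma p under 0.05. miR-196b-5p of the hindbrain list had 0 reads in both CUMS libraries. The liver miRNA miR-122-5p had 0 reads in both control libraries and 1 in each CUMS library.

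Control b stood apart in the 8 epithelial and sensory miRNAs, led by miR-182-5p. Their sum was 1004810 normalized reads in control b and 4047, 4936 and 7329 in control a, CUMS a and CUMS b. miR-96-5p had 0 reads in control a, and miR-200c-3p 0 reads in every library but control b. Control b was the lowest library for miR-124-3p, miR-124-5p and miR-9-5p. With the libraries scaled to the reads left after these 8 miRNAs, the log2 differences of the arms were 0.40 for miR-124-3p, 0.20 for miR-124-5p, 0.19 for miR-9-5p and 0.077 for miR-9-3p. Without control b they were 0.31, -0.14, 0.032 and 0.095 in the same order.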

How the data were processed

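Small RNA of the medial prefrontal cortex was sequenced in 2 control and 2 CUMS libraries. The authors matched cleaned reads of 18 to 25 nt to mouse miRNA precursors without mismatches. The signal the authors deposited is, per group, the mean of its libraries' reads after division by size factors from DESeq. The submitters' processing notes also name Bowtie and mm10, and versions for the small RNA processing are not given in the sources used here. The mean columns carry no group names and were read as control and CUMS from the study's own listing. Columns of the authors' fold changes and p-values were not used, and 0 columns of single samples were left out.

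Each mean was solved for the pair of whole read numbers, 1 per library with its own step, that sums to it. All 1038 values of each group (100%) came out whole, within a relative tolerance of 1e-09. For miR-181a-5p and let-7f-5p in control another pair was nearly as close. The control totals, the shares of reads and CPM in control, and the scaling to all miRNA reads rest on the pair chosen.

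The main test was limma 3.58.1 in R 4.3.3 with a trend, on log2(normalized reads + 1), for the 719 miRNAs reaching 5 reads in 1 or more libraries, with Benjamini-Hochberg adjustment. As a log-scale fold, a difference is understated for low miRNAs. edgeR 4.0.16 (quasi-likelihood, TMM) and DESeq2 1.42.0 (Wald) were run on the recovered reads and called 0 miRNAs each. All 3 were tested on simulated data. Ratios were tested by two-sided exact permutation. Other pseudocounts, filters, scalings, a fit without trend and leaving out each library were the alternatives. Python 3.11.15, numpy 2.4.6, pandas 2.3.3 and matplotlib 3.10.9 were used, with GENCODE M21 for loci. With 3 reads as the floor, depth limits only miRNAs of few reads.

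Named miRNAs were the 4 arms, the 3 most like each, their neighbours in level, and members of the neuronal and marker lists. miR-181a-5p and let-7f-5p, named for their rank, and miR-879-5p were chosen after their values were seen. Members and lists were chosen with earlier results of these data known.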

Additional observations from a re-analysis of the deposited data

How the results depend on the processing

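The 4 log2 differences and the count of miRNAs called were each recomputed under 14 alternatives, and the 3 ratios under 6. No arm passed an adjusted p under 0.05 in limma, edgeR or DESeq2 under any of them, the lowest adjusted p being 0.548 for miR-124-3p, 0.630 for miR-124-5p, 0.593 for miR-9-5p and 0.605 for miR-9-3p and the highest 0.998 for each. Pseudocounts, filters, scalings and tests turned no direction, and scaling to all miRNA reads, which moved the median of all miRNAs to 0.080, gave 0.47 for miR-124-3p. The log2 difference of miR-9-3p, 0.069, was 0.15 with that scaling and 0.034 with TMM. Directions turned only when 1 library was left out, in fits where the lone library of a group is assumed to vary like the other group. Over these, the log2 difference ran from -0.17 to 0.55 for miR-124-5p, from -0.028 to 0.39 for miR-9-5p and from -0.18 to 0.31 for miR-9-3p, and the difference of the arm log2 ratio from -0.051 to 0.45 for miR-124 and from -0.34 to 0.57 for miR-9. The log2 difference of miR-124-3p stayed above 0 and that of the ratio of miR-9-5p to miR-124-3p below 0. Their groups did not overlap, so leaving out 1 library could not turn either sign. The count of called miRNAs ran from 0 to 7, with 7 without control a and none of them an arm of miR-124 or miR-9. The cause of these changes was not tested. Depth limits miR-124-5p most, with 96 reads in control b. No paired analysis was possible because the table holds group means and the recovered libraries cannot be assigned to the replicate numbers of the labels.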
